A study of Mus musculus with 22 samples.

Results

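The genes described here are components and regulators of motile cilia, taken from a fixed list of 36 mouse genes. Of these, 34 were present by symbol in the deposited expression tables, out of 22517 genes with a symbol, and Dnah3 and Dnah7a were not found. The study profiled messenger RNA in 22 mouse libraries, 11 groups of 2, all of strain C57BL/6 per the labels. In 7 groups, mouse embryonic fibroblasts (MEFs) were undergoing induction towards neural progenitor cells (giNPC) and were collected on day 1, 4, 7, 10, 14, 17 or 21. The primary neurosphere-like clusters that arose are the pre-NPC group, and the established giNPC line at passage 6 is giNPC P6. Brain-NPC are neural progenitors derived from neonatal brain, and the last group is teratoma, the only tissue mass among the groups. Neither the induction agents nor the origin and host of the teratoma are stated in the labels, and the labels do not say whether both libraries of a group are separate cultures or tumours. P-values therefore measure the spread between these libraries, which may be technical. The comparisons ask how far the motile cilia programme appears during induction, in the induced and brain-derived progenitors, and in teratoma.

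A motile cilium is built on a microtubule axoneme: outer doublets carry dynein arms that pull, radial spokes reach from the doublets to a central apparatus, and tektins brace the doublet wall. The forkhead factor Foxj1 and the RFX factors Rfx2 and Rfx3 switch on genes of the axoneme, and in multiciliated cells Mcidas and Ccno drive the amplification of centrioles on which the cilia stand. In the brain, motile cilia are carried by ependymal and choroid plexus cells, whereas neural progenitors bear a single immotile primary cilium. Airway epithelium also holds multiciliated cells, and the sperm tail shares much of the axoneme.

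RFX proteins bind a sequence called the X-box, and the letters GTTGCC are one form of its core. Because levels of Rfx2 and Rfx3 are reported below, the windows from 250 bases before to 50 bases after each RefSeq gene start (GRCm38.p6, a different build from that of the expression files) were searched on both strands. A window was given for 30 of the 34 members, but not for Foxj1, Rsph1, Rsph4a and Tppp3. GTTGCC occurred in 16 of 33 member windows (48.5%), from 15 of the 30 members, and in 12.5% of all 32851 windows. The full X-box palindrome, GTTNCC and GGNAAC with 2 bases between them, occurred in 0 of the 33 member windows and in 0.451% of all windows. The forkhead letters TGTTTAC occurred in 2 of the 33, those of Mlf1 and Ak7, and in 3.65% of all windows. These matches are descriptions of letters and not of bound sites. The stretches around the match are shown for the 6 members with a GTTGCC match upstream of the start that had the highest FPKM, read 5′ to 3′ on the gene's strand from RefSeq, with GTTGCC or its reverse complement in capitals.
Mlf1, chr3:67373942-67374047, plus strand: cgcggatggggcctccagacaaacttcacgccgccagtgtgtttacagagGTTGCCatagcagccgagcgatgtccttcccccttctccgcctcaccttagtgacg
Tekt1, chr11:72361883-72361967, minus strand: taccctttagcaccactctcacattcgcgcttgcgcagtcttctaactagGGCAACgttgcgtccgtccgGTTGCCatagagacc
Enkur, chr2:21205366-21205449, minus strand: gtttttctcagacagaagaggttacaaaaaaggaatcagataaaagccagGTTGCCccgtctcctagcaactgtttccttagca
Ccdc113, chr8:95534044-95534099, plus strand: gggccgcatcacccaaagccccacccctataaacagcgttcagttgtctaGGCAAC
Dnaic2, chr11:114727343-114727418, plus strand: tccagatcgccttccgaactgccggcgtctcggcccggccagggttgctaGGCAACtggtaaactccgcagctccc
Rfx2, chr17:56831069-56831174, minus strand: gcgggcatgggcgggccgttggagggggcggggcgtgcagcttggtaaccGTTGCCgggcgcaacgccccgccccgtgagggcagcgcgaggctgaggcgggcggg
Counting the first transcribed base as 1, the match began at position -105 in Mlf1, -35 and -15 in Tekt1, -34 in Enkur, -6 in Ccdc113, -26 in Dnaic2 and -116 in Rfx2.

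Levels are given in FPKM, a fragment count per transcript length and sequencing depth, which allows genes to be compared with each other. Differences were tested on read counts, of which 3084428 to 9689996 per library fell in transcripts. A gene is said to have risen or fallen where edgeR's quasi-likelihood test gave an adjusted p under 0.05 over all 14335 genes tested and the change was at least 2-fold. The counts of Rfx2, Rfx3 and Mlf1 were almost all lost, because each has 2 overlapping transcripts and shared reads were set aside. They held 0.000619, 0.0101 and 0.0014 of the counts expected from their FPKM, so these 3 genes were tested with limma on log2(FPKM + 1) at the same thresholds, where a fold change understates the change of low genes. Of the 34 members, 31 passed the low-count filter, 12 of them only through the teratoma libraries. Dnah11, Dnali1, Ccdc39, Dnaic1 and Ak8 overlap another gene, and Dnah1, Dnah2, Dnah8, Dnah11, Dnali1 and Hydin had groups under 0.05 FPKM that still held at least 10 counts. Calls of these genes on counts are uncertain among the groups outside teratoma, since the strand setting of the counting is not known.

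Teratoma was the highest group for 33 of the 34 members, and 32 of the 34 were at 1 FPKM or more in both of its libraries. The exception in order was Rfx3, which was highest in pre-NPC. The summed FPKM of the 34 members was 649 and 673 in the 2 teratoma libraries, against 14.4 to 16.1 on day 1, 49.6 to 55.8 on day 21, 44.5 to 56.0 in pre-NPC, 26.3 to 29.3 in giNPC P6 and 34.1 to 36.6 in Brain-NPC. Outside teratoma, between 4 members (days 1 and 4) and 11 members (day 21) reached 1 FPKM in both libraries of a group. Between 10 and 20 members stayed under 0.1 FPKM in both libraries of each of these groups. Day 21 and Brain-NPC were each the next highest group for 7 members and pre-NPC for 6. In bulk RNA, fewer cells of a type and less RNA per cell cannot be told apart.

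**Figure D1:**
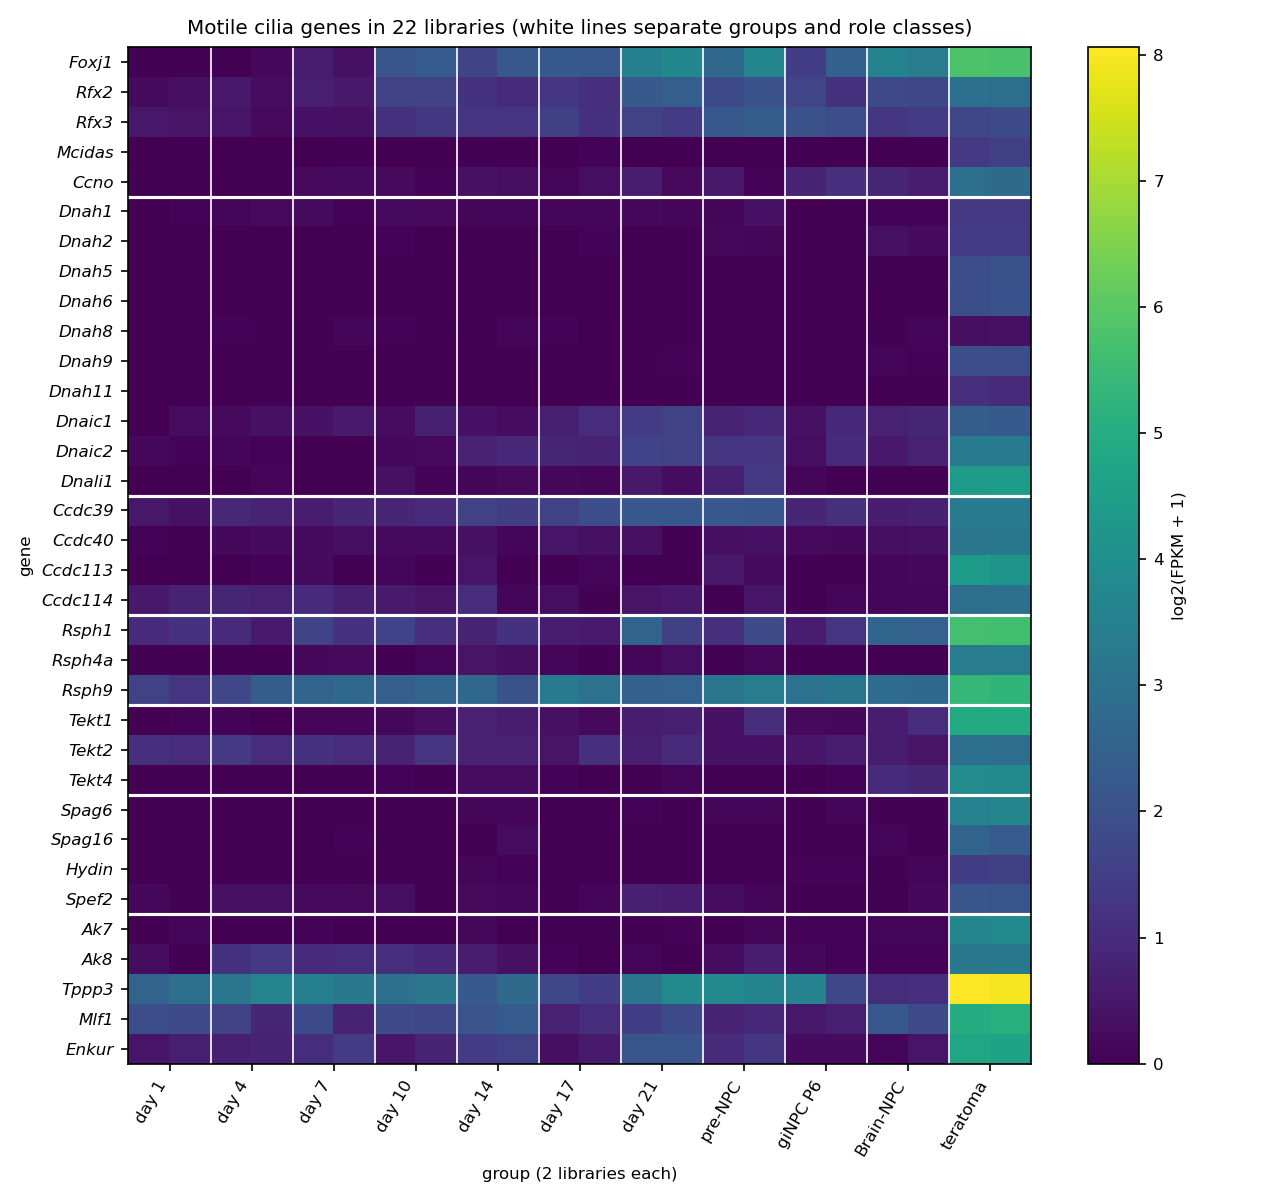
Level of each of the 34 motile cilia genes (rows, ordered by role class) in each of 22 libraries (columns, 2 per group), coloured by log2(FPKM + 1). The 2 teratoma columns are brightest for 33 genes, while Tppp3 and Rsph9 are above 1 FPKM in every library and Foxj1, Rfx2 and Rfx3 brighten from day 10 on.

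Foxj1 stood at FPKM values of 0.0306 and 0.0317 on day 1, 0.0305 and 0.117 on day 4, 0.529 and 0.288 on day 7, 3.37 and 4.11 on day 10, 2.14 and 3.63 on day 14, 3.81 and 3.65 on day 17, 10.1 and 12.5 on day 21, 5.65 and 11.9 in pre-NPC, 1.77 and 4.62 in giNPC P6, 11.1 and 9.5 in Brain-NPC, and 55.5 and 53 in teratoma. The level was near 0 on days 1 and 4, several FPKM from day 10 on and highest in teratoma, and libraries of day 21, pre-NPC and Brain-NPC overlapped each other. Rfx2 stood at FPKM values of 0.171 and 0.248 on day 1, 0.426 and 0.208 on day 4, 0.616 and 0.449 on day 7, 2.03 and 2.04 on day 10, 1.28 and 1 on day 14, 1.44 and 1.15 on day 17, 3.72 and 4.41 on day 21, 2.51 and 3.02 in pre-NPC, 2.19 and 1.26 in giNPC P6, 2.46 and 2.35 in Brain-NPC, and 6.68 and 6.49 in teratoma. Rfx3 stood at FPKM values of 0.433 and 0.347 on day 1, 0.384 and 0.158 on day 4, 0.324 and 0.298 on day 7, 1.27 and 1.45 on day 10, 1.36 and 1.31 on day 14, 1.88 and 1.22 on day 17, 1.97 and 1.68 on day 21, 3.59 and 4.25 in pre-NPC, 3.01 and 2.81 in giNPC P6, 1.44 and 1.62 in Brain-NPC, and 2.3 and 2.61 in teratoma. Both RFX factors were at or under 0.616 FPKM until day 7 and at 0.9997 FPKM or more from day 10 on. Mcidas stood at FPKM values of 0 and 0.0349 on day 1, 0 and 0 on day 4, 0 and 0 on day 7, 0 and 0 on day 10, 0.0314 and 0 on day 14, 0 and 0.0452 on day 17, 0 and 0 on day 21, 0 and 0 in pre-NPC, 0 and 0 in giNPC P6, 0 and 0 in Brain-NPC, and 1.52 and 1.86 in teratoma. Mcidas, the multicilin coactivator, was listed at 0 in 17 of the 20 libraries outside teratoma. Ccno stood at FPKM values of 0.0433 and 0 on day 1, 0 and 0 on day 4, 0.16 and 0.174 on day 7, 0.144 and 0.0624 on day 10, 0.282 and 0.228 on day 14, 0.103 and 0.231 on day 17, 0.532 and 0.156 on day 21, 0.47 and 0.0608 in pre-NPC, 0.748 and 1.12 in giNPC P6, 0.766 and 0.576 in Brain-NPC, and 6.48 and 5.89 in teratoma. Ccno, which encodes cyclin O, reached 1 FPKM in 1 library outside teratoma, a giNPC P6 library. Mcidas (chr13:113784076-113790602, mm9) and Ccno (chr13:113778010-113780986) lie close together on chromosome 13.

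**Figure D2:**
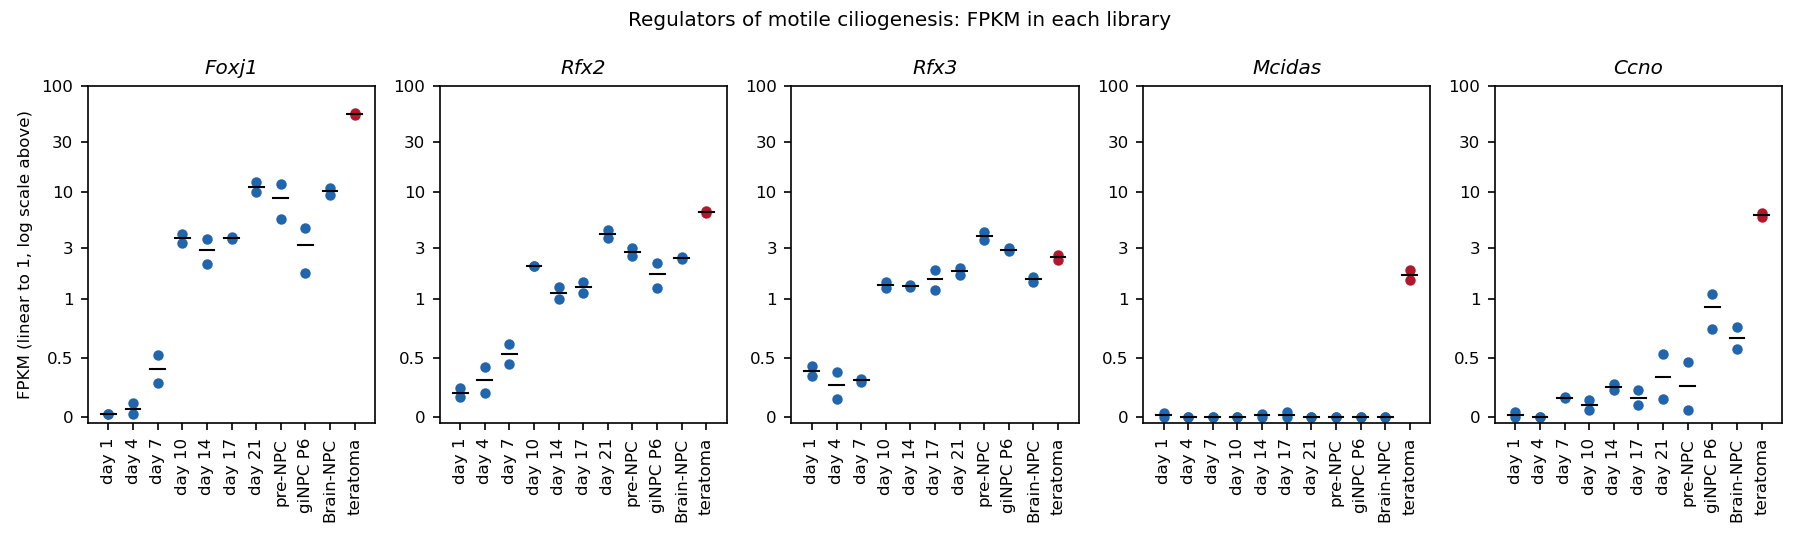
FPKM of the 5 regulators (y axis, linear up to 1 and logarithmic above) in the 11 groups. Points are libraries, bars are means of 2, and teratoma is red. Foxj1, Rfx2 and Rfx3 lie at 0.9997 FPKM or more in every library from day 10 on, whereas Mcidas is above 0.05 FPKM only in teratoma.

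Foxj1 lies on chromosome 11 (chr11:116192018-116196668, mm9). It had 1 count over both day 1 libraries and 284 over both day 21 libraries, a ratio of 431 per library size with a 95% counting interval of 76.7 to 17070. The fitted log2 change from day 1 was 6.83 ± 0.887 (SE) on day 10 (edgeR, adjusted p = 2.705e-06) and 8.48 ± 0.795 on day 21 (edgeR, adjusted p = 1.015e-08). Day 7 was also called, with 17 counts, but the adjusted p lay between 0.0523 and 0.135 when any 1 of the 4 libraries was left out. Rfx2 rose by 1.33 ± 0.148 on the log2(FPKM + 1) scale on day 10 (limma, adjusted p = 3.485e-06; 14.4% of all genes rose by limma) and by 2.06 on day 21 (limma, adjusted p = 1.568e-08). Rfx3 rose by 1.02 ± 0.125 on day 21 (limma, adjusted p = 4.77e-06), and without day 21 replicate 1 or day 1 replicate 2 the change was 0.947 or 0.977, short of 2-fold. Ccno changed among the 7 days (edgeR F-test, adjusted p = 0.0297). It was called higher on day 14, with 7 counts against 0 on day 1, at least 1.999-fold over a floor of 3 counts for the group (edgeR, adjusted p = 0.0326). That call was lost without day 14 replicate 2 or either day 1 library (adjusted p from 0.108 to 0.139), and on day 21, with 2 counts, Ccno was not called (edgeR, adjusted p = 0.131). For Mcidas the same F-test gave an adjusted p of 0.533.

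Among the dynein arm genes of the list, the 7 heavy chains found, which are motor subunits, were almost undetected outside teratoma. Dnah5, Dnah9, Dnah11 and Dnah8 belong to the outer arm and Dnah1, Dnah2 and Dnah6 to the inner arm. The 7 heavy chains found summed to 0.0268 to 0.487 FPKM in the 20 libraries outside teratoma and to 13.1 and 13.3 FPKM in teratoma. Dnah5 was at most 0.0292 FPKM outside and 2.81 and 3.02 in teratoma. Dnah6 was at most 0.0176 outside and 2.85 and 3.07 in teratoma. Dnah8, whose outer-arm chain is best known from sperm, was lowest in teratoma among these 7 heavy chains, at 0.263 and 0.298 FPKM. The remaining heavy chains of the 7 were between 0.998 (Dnah11) and 2.80 FPKM (Dnah9) in teratoma. Dnah7b, a heavy chain that is not a member, differed from them. Its mean was 0.0800 FPKM on day 1, 1.29 on day 21, 1.255 in pre-NPC and 0.753 in teratoma. Dnah10 and Dnah17, also not members, had group means of at most 0.0585 FPKM outside teratoma.

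The intermediate and light intermediate chains were detected more widely. Dnaic2 stood at FPKM values of 0.136 and 0.0565 on day 1, 0.0814 and 0.0523 on day 4, 0 and 0.0367 on day 7, 0.121 and 0.157 on day 10, 0.661 and 0.862 on day 14, 0.777 and 0.694 on day 17, 2.07 and 1.92 on day 21, 1.33 and 1.41 in pre-NPC, 0.235 and 0.932 in giNPC P6, 0.452 and 0.67 in Brain-NPC, and 8.78 and 8.8 in teratoma. Dnaic2 and Dnaic1 encode intermediate chains of the outer arm. Dnaic1 stood at FPKM values of 0 and 0.197 on day 1, 0.158 and 0.274 on day 4, 0.314 and 0.513 on day 7, 0.212 and 0.641 on day 10, 0.326 and 0.209 on day 14, 0.64 and 1.02 on day 17, 1.68 and 2.01 on day 21, 0.69 and 0.891 in pre-NPC, 0.274 and 0.917 in giNPC P6, 0.667 and 0.83 in Brain-NPC, and 4.21 and 3.86 in teratoma. Both were highest outside teratoma on day 21, in both libraries, and in giNPC P6 replicate 1 was well below replicate 2. Dnali1 stood at FPKM values of 0 and 0 on day 1, 0 and 0.0739 on day 4, 0 and 0 on day 7, 0.299 and 0.0555 on day 10, 0.107 and 0.152 on day 14, 0.137 and 0.103 on day 17, 0.474 and 0.208 on day 21, 0.627 and 1.51 in pre-NPC, 0.095 and 0 in giNPC P6, 0.0426 and 0.0394 in Brain-NPC, and 20.1 and 20.7 in teratoma. Dnali1, a light intermediate chain of the inner arm, reached 1 FPKM outside teratoma in 1 pre-NPC library. From day 1 to day 21 Dnaic2 rose by 4.49 ± 0.935 on the log2 scale (edgeR, adjusted p = 0.000371) and Dnaic1 by 3.70 ± 0.879 (edgeR, adjusted p = 0.0013). Dnah5 was also called on counts at day 21, with 6 counts against 0, at least 3.03-fold over a floor of 3 counts for the group, while its FPKM there was 0.0168 and 0. The call of Dnah5 was lost without day 21 replicate 2 or either day 1 library. As a class, these 3 of 10 dynein genes tested were called higher on day 21, against 19.6% of all genes, and 0 lower, against 16%.

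Genes for the docking complex and the ruler, which set where arms attach along the doublet, included a member that rose during the induction, Ccdc39. Ccdc39 stood at FPKM values of 0.443 and 0.283 on day 1, 0.862 and 0.757 on day 4, 0.559 and 0.825 on day 7, 0.805 and 0.942 on day 10, 1.92 and 1.74 on day 14, 1.94 and 2.82 on day 17, 3.59 and 3.51 on day 21, 3.51 and 3.44 in pre-NPC, 0.82 and 1.11 in giNPC P6, 0.577 and 0.623 in Brain-NPC, and 8.72 and 8.92 in teratoma. Ccdc39, which with Ccdc40 forms the ruler of the axonemal repeat, climbed to a plateau on day 21 and in pre-NPC and was low again in giNPC P6. Ccdc40 stood at FPKM values of 0.0458 and 0.0158 on day 1, 0.122 and 0.176 on day 4, 0.189 and 0.227 on day 7, 0.187 and 0.177 on day 10, 0.286 and 0.101 on day 14, 0.382 and 0.287 on day 17, 0.297 and 0.0277 on day 21, 0.27 and 0.321 in pre-NPC, 0.15 and 0.13 in giNPC P6, 0.236 and 0.282 in Brain-NPC, and 8.14 and 8.67 in teratoma. Its partner Ccdc40 was at most 0.382 FPKM outside teratoma. Ccdc113 stood at FPKM values of 0 and 0 on day 1, 0 and 0.0644 on day 4, 0.166 and 0 on day 7, 0.0746 and 0 on day 10, 0.374 and 0 on day 14, 0 and 0.0896 on day 17, 0 and 0 on day 21, 0.457 and 0.19 in pre-NPC, 0 and 0 in giNPC P6, 0.0745 and 0.138 in Brain-NPC, and 20 and 17 in teratoma. Ccdc113, a coiled-coil protein of cilia, was listed at 0 in 11 of the 20 libraries outside teratoma. The docking gene Ccdc114 was between 0 and 1.02 FPKM outside teratoma and at 6.47 and 6.78 in it. Ccdc39 rose on day 21 by 1.60 ± 0.265 on counts (edgeR, adjusted p = 2.827e-05) and by 1.74 ± 0.123 on log2(FPKM + 1) (limma, adjusted p = 1.351e-08), so the rise was present in both kinds of value. It fell from pre-NPC to giNPC P6 on both (-1.42 on counts and -1.19 on log2(FPKM + 1)). In Brain-NPC against day 1 the 2 kinds of value had opposite signs, -1.14 on counts and 0.233 on log2(FPKM + 1). Ccdc39 overlaps Ttc14, and its counts were 1.89 times those expected from its FPKM. Ccdc40 changed among the days (edgeR F-test, adjusted p = 0.037) with 2 counts on day 1 and 18 to 20 on days 4, 10, 14 and 17, and no call of it on single days held without day 1 replicate 2.

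Radial spoke head genes included a pair detected in all groups. Rsph1 stood at FPKM values of 0.972 and 1.23 on day 1, 0.963 and 0.5 on day 4, 2.12 and 1.2 on day 7, 2.07 and 1.13 on day 10, 0.76 and 1.28 on day 14, 0.53 and 0.497 on day 17, 4.96 and 1.87 on day 21, 1.12 and 2.64 in pre-NPC, 0.558 and 1.3 in giNPC P6, 5.05 and 4.74 in Brain-NPC, and 49.4 and 48.6 in teratoma. Rsph9 stood at FPKM values of 2.03 and 1.39 on day 1, 2.29 and 4.15 on day 4, 4.86 and 5.54 on day 7, 4.47 and 5.18 on day 10, 5.42 and 3.04 on day 14, 8.87 and 7.03 on day 17, 4.52 and 4.79 on day 21, 8 and 9.57 in pre-NPC, 7 and 7.84 in giNPC P6, 6.09 and 5.72 in Brain-NPC, and 40.2 and 37.3 in teratoma. Both genes encode parts of the spoke head, and Rsph9 exceeded 1 FPKM in all 22 libraries. Rsph4a stood at FPKM values of 0.0423 and 0.0219 on day 1, 0.0421 and 0 on day 4, 0.131 and 0.142 on day 7, 0 and 0.0916 on day 10, 0.336 and 0.251 on day 14, 0.101 and 0.0284 on day 17, 0.112 and 0.23 on day 21, 0.0287 and 0.118 in pre-NPC, 0.026 and 0.0225 in giNPC P6, 0 and 0 in Brain-NPC, and 9.39 and 9.39 in teratoma. The third spoke head gene, Rsph4a, was at most 0.336 FPKM in every library outside teratoma. Rsph1 was called higher on day 21 than on day 1 (log2 1.45 ± 0.539, edgeR, adjusted p = 0.0303), but its 2 day 21 libraries differed, and without day 21 replicate 1 the change was 0.423 (adjusted p = 0.674). Without day 1 replicate 1 it was 0.994 (adjusted p = 0.243). Rsph9 was called on day 7 (1.32 ± 0.465, edgeR, adjusted p = 0.0393) and day 17 (1.73 ± 0.443, edgeR, adjusted p = 0.00235). The day 7 call was lost without any 1 of the 4 libraries (adjusted p from 0.0663 to 0.265), and the day 17 call without day 1 replicate 2 (adjusted p = 0.0504).

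The tektins, filament proteins of the doublet wall, each had their own pattern. Tekt1 stood at FPKM values of 0 and 0.0618 on day 1, 0.0595 and 0 on day 4, 0.0738 and 0.0803 on day 7, 0.133 and 0.258 on day 10, 0.667 and 0.551 on day 14, 0.283 and 0.16 on day 17, 0.524 and 0.644 on day 21, 0.325 and 1.1 in pre-NPC, 0.148 and 0.13 in giNPC P6, 0.53 and 1.04 in Brain-NPC, and 28.7 and 29.3 in teratoma. Tekt4 stood at FPKM values of 0 and 0 on day 1, 0 and 0 on day 4, 0 and 0 on day 7, 0.0602 and 0 on day 10, 0.202 and 0.214 on day 14, 0.0643 and 0 on day 17, 0 and 0.0974 on day 21, 0 and 0 in pre-NPC, 0 and 0.0586 in giNPC P6, 0.961 and 0.834 in Brain-NPC, and 13.7 and 13.6 in teratoma. Tekt4 was near 1 FPKM in both Brain-NPC libraries and at or under 0.214 in all 18 induction, pre-NPC and giNPC P6 libraries. Tekt2 stood at FPKM values of 1.17 and 1.04 on day 1, 1.55 and 1.02 on day 4, 1.24 and 1.05 on day 7, 0.743 and 1.33 on day 10, 0.674 and 0.661 on day 14, 0.331 and 1.12 on day 17, 0.587 and 1 on day 21, 0.304 and 0.315 in pre-NPC, 0.415 and 0.543 in giNPC P6, 0.556 and 0.343 in Brain-NPC, and 6.6 and 6.31 in teratoma. Tekt2 was present at about 1 FPKM in the early induction cultures and was at most 0.556 FPKM in giNPC P6 and Brain-NPC. Tekt4 was the 1 member higher in Brain-NPC than in each of the 9 induction, pre-NPC and giNPC P6 groups (smallest log2 difference 3.15, edgeR, adjusted p = 0.0323), a result 2.14% of all genes tested gave. It was not called by DESeq2 or by limma (1.71% of all genes), where the smallest difference was 0.651 on log2(FPKM + 1), under 2-fold. The count also fell to 0 without day 1 replicate 1, day 7 replicate 1, day 10 replicate 2, day 14 replicate 2, either day 21 library or either Brain-NPC library. Tekt2 was called lower on day 14 than on day 1 (-2.26 ± 0.877, edgeR, adjusted p = 0.0437), with 8 counts against 35. That call was lost without either day 14 library and without day 1 replicate 1.

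The central apparatus genes were close to silent outside teratoma. The class summed to 0.0168 to 0.716 FPKM in the libraries outside teratoma and to 20.7 and 20.9 in teratoma. Spag6 stood at FPKM values of 0 and 0 on day 1, 0 and 0 on day 4, 0 and 0 on day 7, 0 and 0 on day 10, 0.0897 and 0.0846 on day 14, 0 and 0 on day 17, 0.0565 and 0 on day 21, 0.0872 and 0.0901 in pre-NPC, 0.0395 and 0.0687 in giNPC P6, 0.0355 and 0.0329 in Brain-NPC, and 10.7 and 11.6 in teratoma. Spag16 stood at FPKM values of 0 and 0 on day 1, 0 and 0 on day 4, 0 and 0.0507 on day 7, 0.0419 and 0 on day 10, 0 and 0.199 on day 14, 0 and 0 on day 17, 0 and 0 on day 21, 0 and 0 in pre-NPC, 0 and 0 in giNPC P6, 0.0834 and 0 in Brain-NPC, and 5.1 and 3.94 in teratoma. Spag6 and Spag16 encode proteins of the central pair and were listed at 0 in 11 and 16 of the 20 libraries outside teratoma. Spef2 stood at FPKM values of 0.13 and 0.027 on day 1, 0.285 and 0.275 on day 4, 0.161 and 0.14 on day 7, 0.232 and 0.0188 on day 10, 0.146 and 0.137 on day 14, 0 and 0.0699 on day 17, 0.643 and 0.565 on day 21, 0.212 and 0.11 in pre-NPC, 0 and 0 in giNPC P6, 0.0288 and 0.134 in Brain-NPC, and 3.37 and 3.27 in teratoma. Spef2, a central apparatus protein also needed for sperm tails, was the one member of this class above 0.5 FPKM outside teratoma, on day 21. Hydin, a large central apparatus protein, was at most 0.0819 FPKM outside teratoma and 1.79 and 1.91 in it. Every member of this class passed the low-count filter only through teratoma, which limits what could be called on the induction days. No member was called between day 1 and any later induction day. The F-test over the 7 days called Hydin (edgeR, adjusted p = 0.0101), one of the genes whose counts are uncertain. On log2(FPKM + 1) the F-test called Spef2 (limma, adjusted p = 7.826e-05) and no other member of the class.

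The remaining members are attached to or found with motile cilia. Tppp3 stood at FPKM values of 4.96 and 6.9 on day 1, 8.02 and 11.8 on day 4, 10.1 and 8.61 on day 7, 6.64 and 8.24 on day 10, 3.78 and 5.83 on day 14, 2.36 and 1.73 on day 17, 8.03 and 13.6 on day 21, 13.1 and 11.2 in pre-NPC, 10.9 and 2.38 in giNPC P6, 1.06 and 1.16 in Brain-NPC, and 266 and 248 in teratoma. Tppp3, a tubulin-binding protein, was the most abundant member in teratoma and exceeded 1 FPKM in all 22 libraries, with its 2 giNPC P6 libraries far apart. Mlf1 stood at FPKM values of 2.75 and 2.65 on day 1, 1.95 and 0.822 on day 4, 2.51 and 0.756 on day 7, 2.69 and 2.36 on day 10, 3.21 and 4.12 on day 14, 0.667 and 1.06 on day 17, 1.79 and 2.53 on day 21, 0.732 and 0.864 in pre-NPC, 0.44 and 0.587 in giNPC P6, 3.61 and 2.41 in Brain-NPC, and 30.5 and 32.3 in teratoma. Mlf1 was present from day 1 on, without a common direction over the days. Enkur stood at FPKM values of 0.36 and 0.597 on day 1, 0.645 and 0.69 on day 4, 1.06 and 1.64 on day 7, 0.399 and 0.726 on day 10, 1.67 and 1.99 on day 14, 0.256 and 0.486 on day 17, 3.27 and 3.35 on day 21, 0.979 and 1.43 in pre-NPC, 0.179 and 0.176 in giNPC P6, 0.0798 and 0.369 in Brain-NPC, and 25.9 and 24.4 in teratoma. Enkur encodes enkurin, a protein inside the doublet microtubule, and was above 3 FPKM outside teratoma only on day 21. The adenylate kinases Ak7 and Ak8 differed from each other: Ak7 was at most 0.118 FPKM outside teratoma, whereas Ak8 reached 1.26 and 1.52 on day 4. Ak8 rose on day 4 by 3.43 ± 0.872 (edgeR, adjusted p = 0.00826), with 50 counts against 4, and was called at days 4, 7 and 10 but not later. The calls on all 3 days were lost without day 1 replicate 2, and that on day 10 also without day 1 replicate 1, day 10 replicate 1 or either teratoma library. Enkur rose on day 21 by 2.73 ± 0.634 (edgeR, adjusted p = 0.00107). Tppp3 was called on day 21 at 1.09 ± 0.408 (edgeR, adjusted p = 0.0308), a call lost without any 1 of the 4 libraries.

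Between 2 and 8 of the 31 members tested were called higher than on day 1 on each later day. On day 4, 2 of 31 members tested rose (8.43% of all genes) and 0 fell (1.86%). On day 7 it was 4 (11.6%) and 0 (3.99%), and on day 10 it was 3 (15.3%) and 0 (6.59%). On day 14, 5 rose (15.5%) and 1 fell (12.1%), and on day 17, 4 rose (19.5%) and 0 fell (17.1%). On day 21, 8 rose, against 19.6% of all genes, and 0 fell, against 16% of all genes: Foxj1, Dnah5, Dnaic1, Dnaic2, Ccdc39, Rsph1, Tppp3 and Enkur. By limma, which also tested Rfx2 and Rfx3, 8 of 32 rose (18.3% of all genes). Median log2 change on counts was 0.66 over the 31 members and 0 over all genes. The F-test over all 7 days called 14 of 31 members, against 70.6% of all genes. Of these 31, 12 passed the low-count filter only through teratoma and held few counts over the induction days. That limits how many members could be called on these days. The 6 comparisons share the day 1 libraries. Without day 1 replicate 2, 0 members were called on day 4, 0 on day 7, 1 on day 10, 3 on day 14 and 2 on day 17, while on day 21 the count was 6 without it and 5 without day 1 replicate 1. The counts were also 1 without day 4 replicate 1 on day 4, 1 without day 1 replicate 1 and 2 without either day 7 library on day 7, 1 without day 10 replicate 1 on day 10 and 3 without day 14 replicate 1 on day 14.

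**Figure D3:**
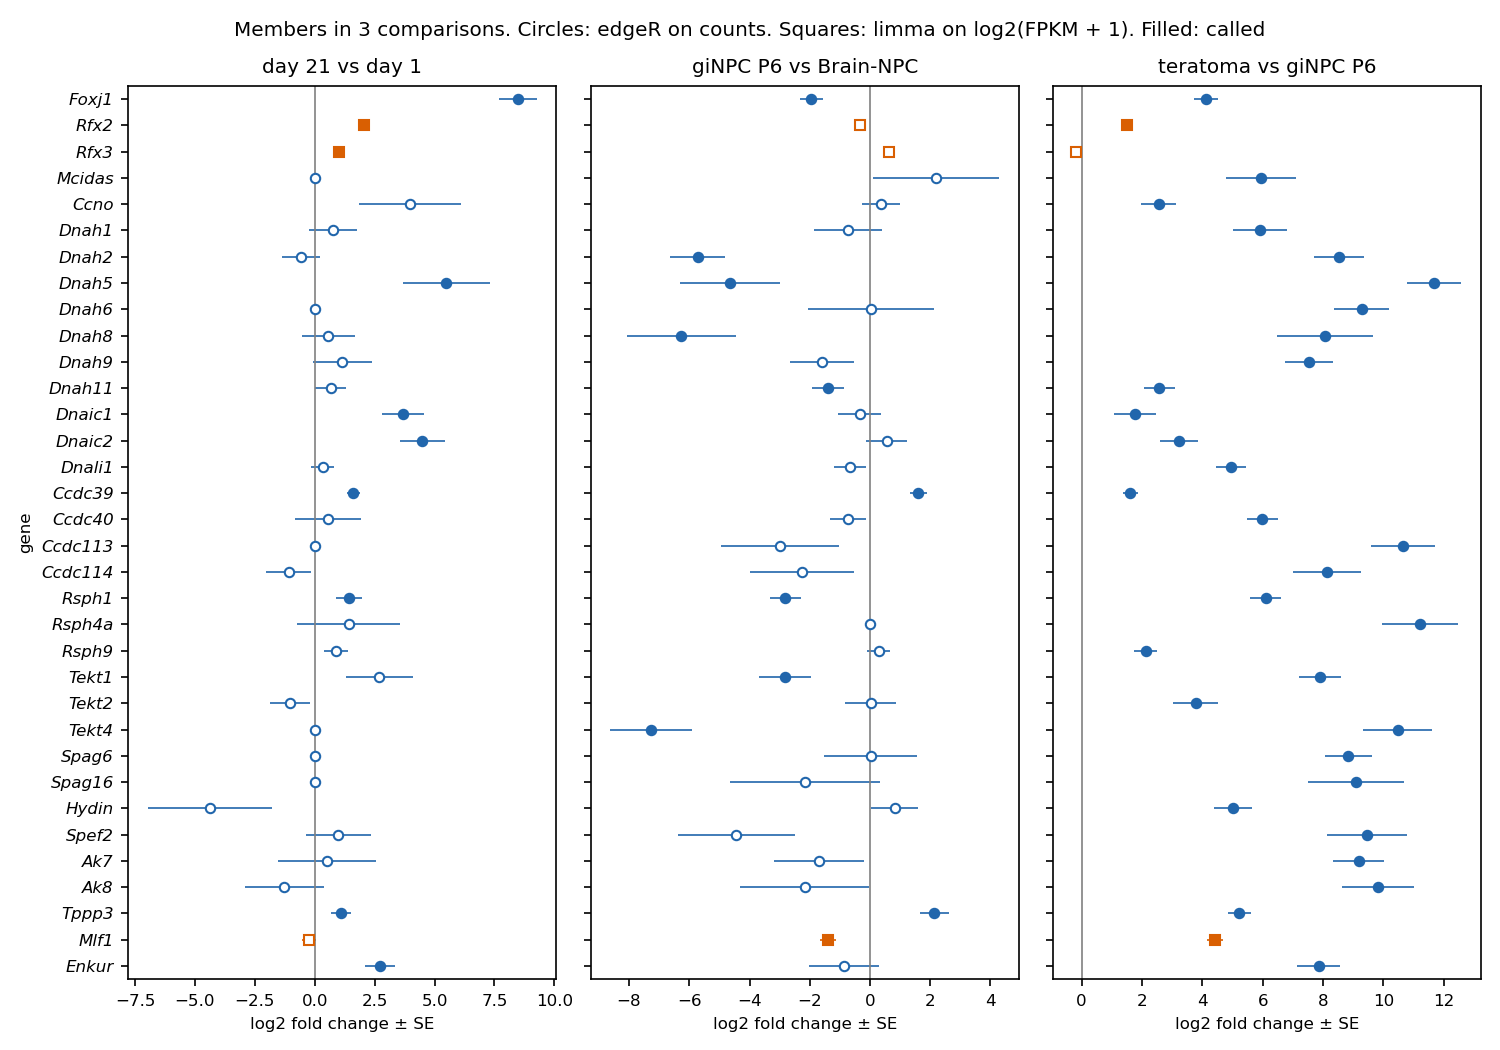
Log2 fold change of each member (x axis, with SE bars) in 3 comparisons, first group minus second. Circles are edgeR on counts and squares are limma on log2(FPKM + 1), filled where called. On day 21 Foxj1, Dnaic1, Dnaic2, Ccdc39 and Enkur lie to the right, 8 filled circles lie to the left in giNPC P6 against Brain-NPC, and in teratoma all 31 circles lie to the right of 0 while the square of Rfx3 does not.

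From day 21 to pre-NPC, the members called were near the share of all genes in both directions. From pre-NPC to giNPC P6 more members fell than rose, as was also so over all genes. From day 21 to pre-NPC, 2 members rose (8.22% of all genes) and 2 fell (9.29%). Enkur fell by 2.48 ± 0.614 on the log2 scale (edgeR, adjusted p = 0.0038) and Rsph9 rose by 1.36 ± 0.427 (edgeR, adjusted p = 0.0191), while Foxj1 differed by -0.13 ± 0.367 (edgeR, adjusted p = 0.86). Ccdc40 also rose and Dnah11 also fell. The limma fit called 0 members in this step, against 4.06% of all genes higher and 8.24% lower, and edgeR called 0 without day 21 replicate 1, 2 without day 21 replicate 2 and 1 without pre-NPC replicate 2. From pre-NPC to giNPC P6, 3 members rose (7.69% of all genes) and 9 fell (10.8%). Foxj1 fell by 1.82 ± 0.387 (edgeR, adjusted p = 0.000988) and Ccdc39 by 1.42 ± 0.249 (edgeR, adjusted p = 0.000151), and both were also called by limma (5.85% of all genes). The others that fell were Dnah1, Dnah2, Dnali1, Ccdc113, Ak8, Tppp3 and Enkur, of which Dnah2, Ccdc113, Ak8 and Enkur had at most 16 counts in either group. Ccno, Dnah11 and Hydin rose on counts, from 5, 8 and 1 counts in pre-NPC to 37, 60 and 19 in giNPC P6. The mean FPKM of Dnah11 went the other way, from 0.00396 to 5.3e-12. Apart from Foxj1 and Ccdc39, every member called in this step lost its call without at least 1 library of these 2 groups. Without giNPC P6 replicate 2 the change of Tppp3 was -0.524. In a fit of these 2 groups alone 1 member was called and Foxj1 was not (edgeR, adjusted p = 0.0794), and the count was 5 without pre-NPC replicate 2 or giNPC P6 replicate 1 and 6 without giNPC P6 replicate 2.

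Against day 1, the established line and the brain-derived progenitors both had more Foxj1. In giNPC P6, 4 of 31 members rose (23% of all genes) and 5 fell (20.2%). In Brain-NPC, 12 rose (27% of all genes) and 3 fell (23.1%). By limma, 20.9% of all genes rose and 13.7% fell in giNPC P6, and 24.3% rose in Brain-NPC. Foxj1 was higher than on day 1 by 6.53 ± 0.92 in giNPC P6 and by 8.47 ± 0.785 in Brain-NPC (edgeR, adjusted p = 2.766e-06 and 4.674e-09). Rfx2 was higher by 1.154 in giNPC P6 and 1.495 in Brain-NPC on log2(FPKM + 1) (limma, adjusted p = 6.601e-06 and 3.385e-07), and without giNPC P6 replicate 1 the change in giNPC P6 was 0.905, under 2-fold. Rfx3 was higher by 1.49 in giNPC P6 (limma, adjusted p = 6.478e-08) and by 0.864, under 2-fold, in Brain-NPC, and Mlf1 was lower by 1.29 in giNPC P6 (limma, adjusted p = 0.000797). Tppp3 fell in Brain-NPC by 2.01 ± 0.495 (edgeR, adjusted p = 0.00125) and had lower FPKM there than in any other group. These comparisons share the day 1 libraries, and without day 1 replicate 2 the count in Brain-NPC was 9.

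The 2 kinds of progenitors were then compared directly. In giNPC P6, 8 of 31 members were lower than in Brain-NPC, against 8.83% of all genes, and 2 were higher, against 7.79% of all genes. Foxj1 was lower by 1.95 ± 0.383 on the log2 scale (edgeR, adjusted p = 0.000528), with 1.77 and 4.62 FPKM in giNPC P6 and 11.1 and 9.50 in Brain-NPC. The FPKM values of these groups did not overlap. Rsph1 was lower by 2.81 ± 0.517 (edgeR, adjusted p = 0.000275). Tekt4 had 0 counts in giNPC P6 and 44 in Brain-NPC, at least 14.3-fold lower over a floor of 3 counts for the group. Tekt1, Dnah2, Dnah5, Dnah8 and Dnah11 were the other members called lower, the last 4 at under 0.3 FPKM in both groups. The calls of Tekt1, Dnah5, Dnah8 and Dnah11 were each lost without Brain-NPC replicate 2 and without at least 1 of the giNPC P6 libraries. Mlf1 was lower by 1.39 ± 0.278 on log2(FPKM + 1) (limma, adjusted p = 0.00106; 5.34% of all genes were lower by limma). Tppp3 was higher in giNPC P6 by 2.14 ± 0.476 (edgeR, adjusted p = 0.0016), but without giNPC P6 replicate 1 the difference was 0.876 (adjusted p = 0.167). Ccdc39 was higher on counts by 1.60, and by 0.292 on log2(FPKM + 1) (limma, adjusted p = 0.0716). Rfx2 and Rfx3 differed by -0.34 and 0.63 on log2(FPKM + 1), under 2-fold. Without giNPC P6 replicate 1 or Brain-NPC replicate 2, 6 members were called in all. The 11 neural progenitor markers summed to 4331 to 5911 FPKM in giNPC P6 and 4460 to 4594 in Brain-NPC. The choroid plexus list summed to 17.7 to 18.9 FPKM in giNPC P6 and 254 to 267 in Brain-NPC, where Ttr alone was 232, Kl was under 0.05, and 3 of the 12 markers reached 1 FPKM in both libraries. Of 11 choroid plexus markers tested, 6 were lower and 1 was higher in giNPC P6. Ependymal genes beside motile cilia summed to 4516 to 6627 FPKM in giNPC P6 and 8789 to 8952 in Brain-NPC. Most of the Brain-NPC sum was Vim (1789), Dbi (3323) and Mt3 (3343). By mean FPKM, S100b (58.8 against 18.8), Cd24a (97.5 against 43.5) and Aqp4 (60.3 against 29.6) were higher in giNPC P6. So were Gja1 and Ank3, while the other genes of the list were lower. The part of such cells in the difference was not tested.

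Members of all structural classes were high in teratoma. All 31 members tested on counts were higher than in giNPC P6, a comparison in which 32.1% of all genes were higher and 10.5% lower. Since 12 of these 31 passed the filter only through teratoma, the count is not support in itself, and it includes the 19 members that passed without the teratoma libraries. Against day 1 likewise 31 were higher (37.5% of all genes) and 0 lower (17%). The median log2 change of all genes in that comparison was 0.444 in the TMM-scaled fit, and 0.562 with DESeq2's scaling, while that of the 31 members was 6.43, or 5.46 with genes at 0 on day 1 held at their bound. In teratoma against giNPC P6 the medians were 7.53 for the members, or 5.98 with bounds, and 0.04 for all genes, or 0.225 with DESeq2's scaling. In both comparisons the medians of the members include the 12 that passed the filter only through teratoma. They are not support in themselves either. Foxj1 rose by 4.13 ± 0.399 over giNPC P6 (edgeR, adjusted p = 1.7e-08) and Tppp3 by 5.23 ± 0.38 (edgeR, adjusted p = 1.946e-10). Dnah5, Dnah8, Rsph4a, Ccdc113, Tekt4, Spag16, Spef2 and Ak8 had 0 counts in giNPC P6, and teratoma was at least 308-fold higher for Dnah5, 221-fold for Rsph4a, 151-fold for Ccdc113, 132-fold for Tekt4, 84.0-fold for Ak8, 66.0-fold for Spef2, 51.1-fold for Spag16 and 24.9-fold for Dnah8. Mcidas had 117 counts against 1, a ratio of 78.0 with a 95% counting interval of 13.7 to 3106. It was not called by DESeq2 (adjusted p = 0.158). Mcidas, Dnah5, Rsph4a, Ccdc113, Spag16 and Spef2 passed the low-count filter only through teratoma, so their values here are not support in themselves. Rfx2 rose by 1.496 ± 0.148 and Mlf1 by 4.42 ± 0.278 on log2(FPKM + 1) (limma, adjusted p = 3.112e-07 and 1.347e-09; 29.9% of all genes). Rfx3 differed by -0.18 ± 0.125 (limma, adjusted p = 0.219).

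A stricter question is which members were higher in teratoma than in each of the 10 other groups by at least 2-fold. On counts this held for 26 of 31 members, against 12.7% of all genes. The 31 include 12 that passed the filter only through teratoma, so the count is not support in itself, and of the 19 that passed without the teratoma libraries it held for 14. It did not hold for Dnah8, Dnah11, Dnaic1, Ccdc39 and Tekt2. With limma it held for 29 of 32 members, against 14.4% of all genes, and the exceptions were Rfx2, Rfx3 and Dnaic1. Of these 32, 18 passed the filter on low FPKM only through teratoma, and among the other 14 it held for 11. For Rfx2 the smallest difference was 0.59, and for Rfx3 it was -0.51, both on log2(FPKM + 1). Among members called on counts, the smallest difference over any other group was 1.60 for Rsph9 and 1.94 for Dnaic2. It was 7.43 for Ak7 and 6.69 for Dnah6, but both passed the filter only through teratoma, so these 2 values are not support in themselves. Among the called members that passed without the teratoma libraries it was largest for Ccdc40, at 4.80. Without teratoma replicate 1 the count was 20.

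Foxj1 and the 7 dynein heavy chains found among the members were not in proportion across groups. Teratoma had 4.81 times the mean Foxj1 FPKM of day 21 and 53.7 times its summed heavy chain FPKM. Over Brain-NPC the ratios were 5.27 and 29.96, and over giNPC P6 they were 17.0 and 287. In Brain-NPC, Foxj1 was 9.50 and 11.1 FPKM while the 7 heavy chains together were 0.422 and 0.459. On day 21, Foxj1 was 10.1 and 12.5 FPKM and the 7 heavy chains together 0.209 and 0.282. These sums leave out Dnah7b, which had a mean of 1.29 FPKM on day 21 and 0.753 in teratoma. Heavy chain levels this low rest on few counts.

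**Figure D4:**
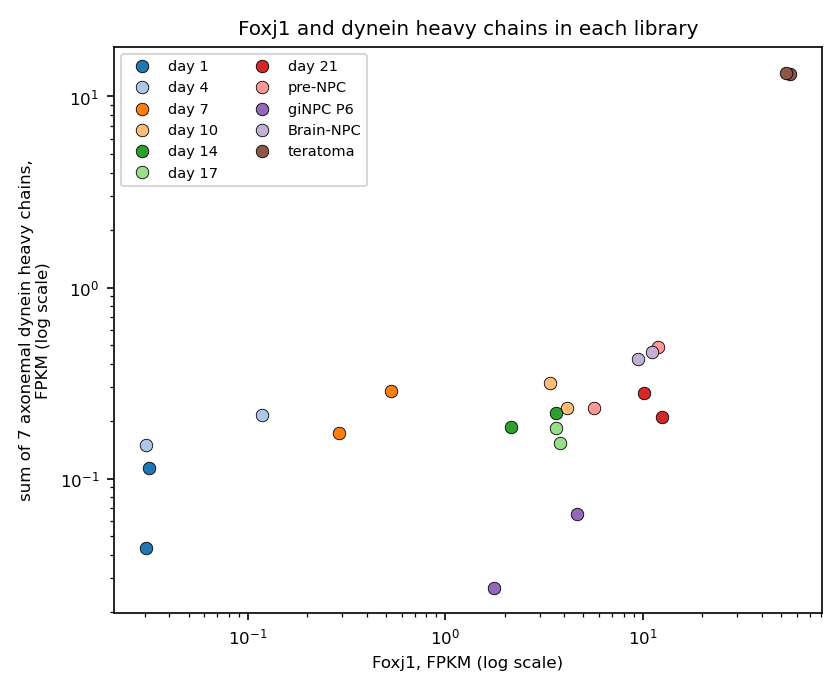
Foxj1 FPKM (x axis, logarithmic) against the summed FPKM of 7 axonemal dynein heavy chains (y axis, logarithmic), 1 point per library, coloured by group. Outside teratoma the heavy chain sum stays between 0.0268 and 0.487 while Foxj1 runs from 0.0305 to 12.5, and both teratoma libraries lie at 13.1 to 13.3.

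Outside teratoma, the members most like Foxj1 over the 20 libraries were compared by Pearson's r of log2(FPKM + 1), for the 16 members that reached 1 FPKM in some library. This is a description over libraries that share groups. Rfx2 was the most like it (0.925), followed by Dnaic2 (0.808), Tekt1 (0.801), Rfx3 (0.783) and Dnaic1 (0.775). In all, 9 of the 16 had a value of at least 0.5. The same values were not computed over all genes, 70.6% of which changed among the 7 days by edgeR's F-test. The count is therefore not a result particular to these members. The 4 with a value below 0 were Tekt2 (-0.63), Ccdc114 (-0.58), Ak8 (-0.50) and Tppp3 (-0.25), which were present in the early cultures.

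Other genes of cilia were taken from 4 lists. Of 15 tested genes for upstream regulators and centriole amplification, 4 rose and 4 fell in teratoma against giNPC P6, where 32.1% of all genes rose and 10.5% fell. Ccdc67, which encodes the deuterosome protein Deup1, was 0 FPKM in giNPC P6 and 3.98 ± 0.273 (SD, n = 2) in teratoma, at least 89.7-fold higher. Gmnc, a geminin relative that acts upstream of Mcidas, was 0 and 1.05 ± 0.195, at least 23.8-fold higher. Rfx4, an RFX factor of the developing brain, was lower, at 12.4 ± 0.358 FPKM against 39.1 ± 6.93, and so was Stil, a centriole duplication gene, at 1.77 against 4.78 FPKM. Of 11 cytoplasmic assembly factors for dynein arms, 6 rose and 0 fell, among them Lrrc6 (4.53 FPKM against 0) and Zmynd10 (10.6 ± 0.407 against 0.27 ± 0.0263). Of 40 further axonemal genes, 35 rose and 0 fell, among them Ccdc153 (51.3 against 0 FPKM, at least 398-fold) and Capsl (42.1 against 0, at least 222-fold). Of 48 genes of intraflagellar transport and the primary cilium, which both kinds of cilia use, 10 rose and 0 fell, among them Ift88 (8.77 ± 0.556 against 1.58 ± 0.0959 FPKM) and Bbs1 (5.77 against 1.58). The median log2 change was 5.45 for the further axonemal genes (4.89 with genes at 0 held at their bound), 2.73 for the assembly factors, 0.46 for the transport and primary cilium genes and -0.24 for the regulators, beside 0.04 over all genes. In the same order, 27, 4, 0 and 4 genes were higher in teratoma than in each of the 10 other groups, against 12.7% of all genes. Genes of these lists that passed the low-count filter only through the teratoma libraries were not separated out. The counts and medians of the lists in teratoma are therefore not support in themselves.

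The same lists were compared over the induction. From day 1 to day 21, when 19.6% of all genes rose and 16% fell, 11 of the 40 further axonemal genes rose and 2 fell, 2 of 11 assembly factors rose and 0 fell, 2 of 15 regulators rose and 2 fell, and 7 of 48 transport and primary cilium genes rose while 8 fell. Rfx4 went from 0.039 to 36.6 ± 0.409 FPKM, and its counts, which held 0.183 of those expected, went from 0 to 406. Ccdc78, a deuterosome gene, rose to 0.623 ± 0.386 FPKM from 0.126. The centriole genes Cep120 (19.1 to 7.97 FPKM) and Plk4 (4.74 to 3.26) fell. The assembly factors Dyx1c1 (0.668 to 3.93 FPKM, with 0.294 of the expected counts) and Spag1 (1.63 to 6.10) rose. Among the transport and primary cilium genes Bbs1 (0.676 to 2.38 FPKM) and Ift27 (10.2 to 25.2) rose, while Ttc26 (2.44 to 0.679) and Ttc21b (6.54 to 2.21) fell. Of the further axonemal genes, Wdr52 (0 to 0.308 FPKM) and Spag8 (0 to 0.485) were called higher over 0 counts on day 1, at least 11.1-fold and 4.55-fold over a floor of 3 counts for the group, and Wdr96 fell (0.363 to 0.228). Between giNPC P6 and Brain-NPC, where 7.79% of all genes were higher in giNPC P6 and 8.83% lower, 0 of 15 regulators were higher in giNPC P6 and 2 lower, Rfx4 (39.1 ± 6.93 FPKM against 86.7 ± 0.108, SD, n = 2) and E2f4 (21.8 against 45.04 FPKM), a factor for centriole genes. Of the assembly factors 0 were higher and 3 lower, among them 1110004E09Rik (18.5 against 44.5 FPKM) and Heatr2 (4.08 against 7.72). Of the further axonemal genes 2 were higher, Wdr52 (0.0907 against 0.042) and Dnah7b (0.535 against 0.211), and 6 lower, among them Lrrc23 (0.185 ± 0.261 against 0.929 ± 0.334). Of the transport and primary cilium genes 2 were higher, Hspb11 (47.5 ± 13.2 against 15.4 ± 0.342) and Iqcb1 (3.78 against 1.69), and 7 lower, among them Nphp4 (1.17 against 3.73) and B9d1 (17.2 against 48.5).

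Among marker lists of cell types that carry or accompany motile cilia, some were higher in teratoma and others were not. All 14 tested general epithelial markers and all 12 tested airway and gut secretory markers were higher in teratoma than in giNPC P6. In that comparison 32.1% of all genes were higher and 10.5% lower. Markers that passed the low-count filter only through the teratoma libraries were not separated out. The counts of markers called higher in teratoma are therefore not support in themselves. The airway and gut secretory list summed to 2686 to 2743 FPKM in teratoma, with 14 of 15 markers at 1 FPKM or more and Sftpa1 under 0.05, and to 0.0553 to 0.184 in giNPC P6. Scgb1a1, the secretory marker of airway club cells, was 103 FPKM in teratoma and listed at 0 in every other group. The general epithelial list summed to 1153 to 1173 FPKM in teratoma and 0.332 to 0.492 in giNPC P6. Choroid plexus markers were also higher (10 of 11 tested, 1 lower), with a sum of 203 to 205 FPKM and 10 of 12 markers at 1 FPKM or more. Of the ependymal genes beside motile cilia, 5 of 11 tested were higher and 1 lower. Their sums were 3674 to 3832 FPKM in teratoma and 4516 to 6627 in giNPC P6. Vim, Dbi and Mt3 made up most of the sum in giNPC P6, and Clu was the largest part in teratoma (889 FPKM). Testis and sperm genes, 15 in the list, summed to 1.78 to 2.16 FPKM in teratoma. Their sum was 0.676 to 1.30 in giNPC P6 and 5.57 to 5.83 in pre-NPC. Prm1, Tnp1, Tnp2, Odf1, Akap4 and Spata16 were under 0.05 in both teratoma libraries. Neural progenitor markers were lower in teratoma for 9 of 10 tested, and fibroblast and macrophage markers were higher for 8 of 9 and 9 of 9. The part of each of these cell types in the cilia genes' levels was not tested.

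**Figure D5:**
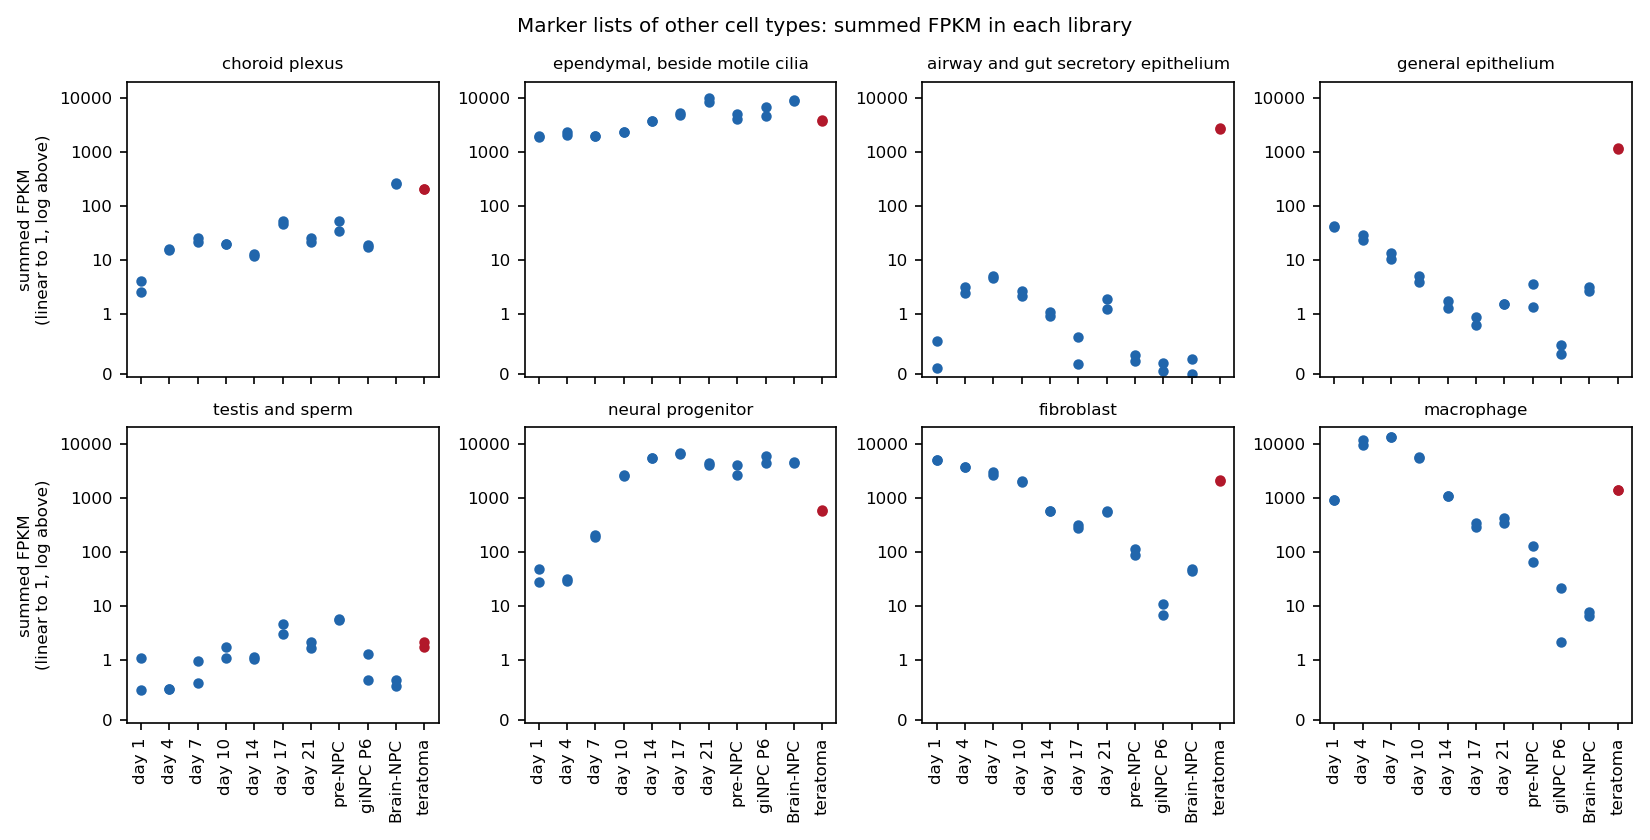
Summed FPKM of 8 marker lists (y axis, linear up to 1 and logarithmic above) in each library of the 11 groups, with teratoma in red. The secretory and general epithelial sums are above 1000 in teratoma and under 50 elsewhere, while the testis and sperm sum stays under 10 in every library.

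During the induction, the marker lists moved as well. From day 1 to day 21, when 19.6% of all genes rose and 16% fell, 9 of 10 tested neural progenitor markers rose. Over the same span 8 of 9 fibroblast markers and 8 of 9 macrophage markers fell. Of 11 ependymal genes beside motile cilia, 6 rose and 2 fell. Of 12 tested airway and gut secretory markers, 0 were called by edgeR or limma, and their sum stayed under 10 FPKM on each day. Aqp4, a water channel of astrocytes and ependymal cells, was 456 FPKM on day 21 and 0.0853 on day 1, and Crb1 was 0.0867 on day 21. The part of these cells in the rise of Foxj1, Rfx2 and the intermediate chains was not tested.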

How the data were processed

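Messenger RNA of 22 mouse libraries was measured by poly(A) sequencing. Per the submitters' processing notes, TopHat2 2.0.12, HTSeq 0.6.0, Cufflinks 2.2.1, edgeR and the mm9 genome were used. The deposited counts are whole reads per RefSeq transcript, not normalized, with 3084428 to 9689996 reads in transcripts per library. The deposited FPKM values were made by the authors with Cufflinks, per the file headers, and were summed here per gene symbol. The strand setting of the counting is not given in the sources used here.

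Counts were summed per gene and fitted with edgeR 4.0.16 in R 4.3.3 (quasi-likelihood, TMM, filterByExpr with a minimum count of 10, 1 fit of all groups, Benjamini-Hochberg adjustment). For Rfx2, Rfx3 and Mlf1, limma 3.58.1 was run on log2(FPKM + 1) over genes of at least 1 FPKM in 2 libraries. Alternatives used DESeq2 1.42.0, other scalings, filters, pseudocounts and fits, and each library left out in turn. Tests were checked on simulated data. Python 3.11.15 with pandas 2.3.3, scipy 1.17.1 and matplotlib 3.10.9 did the rest. The 2 libraries of a group differed beyond sampling noise in every group, and none were identical. Chi-square per degree of freedom was 2.19 or more over genes with at least 20 counts summed over the 2 libraries.

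The members, the lists and the comparisons were chosen with earlier results of these data known. Every library's value is printed for the 5 regulators and the 3 members with the highest group mean in each other class. From each pathway list, the 2 genes with the largest called rise and the 2 with the largest called fall (1 CPM or more in the higher group) are named for 3 comparisons, except genes that are not reported here. Promoters were ranked by the member's highest group mean; Tekt4 and Spag6 ranked among the first 6 but matched GTTGCC only after the start, and upstream matches were shown instead. The markers Ttr, Scgb1a1, Aqp4 and Crb1 were singled out after their values were seen. Counting error alone is covered by the intervals and bounds. A bound uses a floor of 3 counts over the group at 0.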

Additional observations from a re-analysis of the deposited data

How the results depend on the processing

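Counts of members called depended on the processing outside teratoma. The shares of all genes called under these other settings are not given, apart from those of limma above. A changed count of members can therefore not be told from a change in calls over all genes. With limma, the counts were 1 on day 4, 1 on day 7, 2 on day 14, 0 for pre-NPC against day 21, 2 for giNPC P6 against pre-NPC, 5 for giNPC P6 and 5 for Brain-NPC against day 1, 4 for giNPC P6 against Brain-NPC and 0 for Brain-NPC above every induced group, where edgeR gave 2, 4, 6, 4, 12, 9, 15, 10 and 1. They were the same without a filter on low FPKM. With a pseudocount of 0.1 the counts were 1, 7, 10, 14, 12 and 14 on days 4, 7, 10, 14, 17 and 21 and 8 for pre-NPC against day 21. In fits of only the groups compared they were 1, 2, 1 and 3 on days 4, 7, 10 and 14, 1 for giNPC P6 against pre-NPC, 4 against day 1 and 5 against Brain-NPC; this was not run for the 3 results over many groups. Without a filter on low counts day 17 gave 7, and DESeq2 gave 0 members for Brain-NPC above every induced group. The cause was not tested. Dnali1 in giNPC P6 against day 1 reversed to 0.065, or 0.482 with a pseudocount of 0.1, and Ccdc39 in Brain-NPC against day 1 to 0.233, or 0.617. Leaving out 1 library gave 0 to 2 members on day 4, 0 to 2 on day 7, 1 to 2 on day 10, 3 to 6 on day 14, 2 to 6 on day 17, 5 to 6 on day 21, 0 to 4 for pre-NPC against day 21, 5 to 8 for giNPC P6 against pre-NPC, 7 to 9 for giNPC P6 against day 1, 9 to 12 for Brain-NPC against day 1, 6 to 9 for giNPC P6 against Brain-NPC, 30 to 31 for teratoma against giNPC P6, 30 to 30 against day 1, 11 to 15 over the 7 days, 20 to 28 for teratoma above every other group and 0 to 1 for Brain-NPC above every induced group. Of 1215 values of 108 fold changes of named members, 1039 kept direction and side of the threshold, 170 lost the call and 6 reversed. Replicate numbers did not pair the libraries: over 55 pairs of groups the correlation of deviations ran from -0.127 to 0.1. With the replicate number as a block, 31 members were called in teratoma against giNPC P6, 8 on day 21 and 11 for giNPC P6 against pre-NPC. Members under 1 FPKM rest on few counts, which limits what could be detected.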
